A study of Homo sapiens with 6 samples.

Results

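Histone genes of 2 kinds were compared between MDA-MB-231 cells, a triple-negative breast cancer line, that had been depleted of Sam68 and control cells. Loci were taken by symbol: every locus of the deposited expression table with a gene symbol starting with HIST and a digit was counted as a locus of the histone gene clusters, and every locus starting with H2AF, H3F3 or H1F as a replacement variant. This gave 82 loci of 74852, of which 67 were cluster loci and 14 replacement variants. The remaining locus, H1FX-AS1, is an antisense gene beside H1FX that carries the prefix but is no histone gene. The cluster loci lay on chromosome 6 (54 loci), chromosome 1 (12 loci) and chromosome 12 (1 locus), in hg19.

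The study had 3 libraries of cells given non-targeting siRNA (si-CTRL) and 3 of cells given an siRNA pool targeting SAM68 (si-SAM68), all made from polyadenylated RNA. KHDRBS1 encodes Sam68, an RNA-binding protein that regulates splicing. Both groups were the same cell line, without any other alteration named, and an siRNA pool cannot separate the effect of its single siRNAs. The sample labels describe a pair of transfection rounds and a harvest 1 day after the second, whereas the study's methods give another harvest time, culture medium and RNA kit. The study's methods state harvests in triplicate but not whether these came from separate cultures or transfections, so that p-values measure the spread between these libraries, which may be technical.

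Replication-dependent histone genes sit in clusters, have almost no introns and supply the histones that package newly copied DNA in S phase. Their mRNAs end in a conserved stem-loop, bound by the stem-loop binding protein SLBP, and carry no poly(A) tail. Replacement variants are transcribed through the whole cell cycle from genes outside the clusters and end in an ordinary poly(A) tail, and some cluster genes can also end at a downstream poly(A) signal. A poly(A)-selected library therefore holds the replacement variants in full, and the cluster genes mainly as far as a tailed form exists or untailed RNA is carried over.

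The stem-loop that separates both kinds was looked for in the GENCODE 29 transcripts, on the transcript strand only, and the matches below are shown because they mark the untailed 3′ end that poly(A) selection should leave behind. The 16 bases of the stem-loop are in capitals and 7 bases on each side in lower case, 5′ to 3′. HIST1H2AE ended 51 bases after its match, whereas in HIST1H4E, HIST1H3E and HIST1H2BG the annotated transcript went on for 1022, 1862 and 1059 bases.
HIST1H2AE: aaccaaaGGCTCTTTTCAGAGCCacccacc
HIST1H2BG: actcaaaGGCTCTTTTCAGAGCCactcaag
HIST1H2BD: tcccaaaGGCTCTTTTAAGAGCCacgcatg
HIST1H3E: atccaaaGGCTCTTCTCAGAGCCaaccact
HIST1H4E: aatcaaaGGCCCTTTTCAGGGCCgcccaca
H2AFX: ccacaaaGGCCCTTTTAAGGGCCaccaccg

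Over all genes, 66 of 57133 gene names (0.116%) had such a match, and 36 of them were among the 122 histone gene names (29.5%). Of the cluster loci tested below, 28 held a match and 33 did not. Of the 33, 28 were annotated as coding sequence alone, so that the missing match says only that these letters are not in the annotated transcript. H2AFX, the variant that is phosphorylated at DNA breaks, was the only one of the 11 replacement variants tested with a match, and its transcript went on for 1044 bases to a poly(A) signal.

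The ordinary ends are shown for 3 replacement variants and for HIST1H2AG, a cluster gene annotated far past its coding part. The last 30 bases of the transcript are given, with the poly(A) signal AATAAA in capitals. All 11 replacement variants tested and 21 of the 61 cluster loci tested had AATAAA or ATTAAA starting within 40 bases of a transcript end, as had 45.3% of all gene names.
HIST1H2AG: aattcatAATAAAgtgaaatgttcaagttc
H3F3B: atgagactaaAATAAAatttttgaagttaa
H2AFZ: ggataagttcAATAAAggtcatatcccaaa
H1F0: ttaaAATAAAttggaaaagggagaaactga

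KHDRBS1 had normalized read counts of 15660, 14483 and 14737 in the si-CTRL libraries and of 583, 602 and 670 in the si-SAM68 libraries, a log2 fold change of -4.60. Depth was between 52625492 and 82568487 reads per library. Si-SAM68 replicate 2 stood apart: the rRNA precursor locus RNA45S5 took 15.1% of its reads, against 1.83% to 3.17% in the other libraries. The line's own markers VIM, CD44, KRT8 and KRT18 were at 16628 normalized reads or more in every library. PGR was at 0, and ESR1, CDH1, EPCAM, the blood cell marker PTPRC and the endothelial marker PECAM1 were at 16.2 or less. Results are therefore given with and without si-SAM68 replicate 2.

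A locus was tested when its mean was at least 10 normalized reads over the 6 libraries, which 61 of the 67 cluster loci and 11 of the 14 replacement variants passed. The testis or oocyte genes HIST1H2AA, HIST1H2BA, HIST3H3, H1FNT, H1FOO and H2AFB1 // H2AFB2 // H2AFB3 and the pseudogene HIST1H2APS1 were at 0 in every library. HIST1H1T and HIST1H4G did not exceed 2 normalized reads. Of the cluster loci tested, HIST1H1A and HIST1H2BB had a mean under 10 over the other 5 libraries and passed through si-SAM68 replicate 2 alone. HIST1H2BB was called higher with the replicate number as a block (log2 fold change 1.91, limma adjusted p = 0.0556) and not without it (adjusted p = 0.197). Many histone genes are near-identical copies, so that reads may be split or shared between them, and 2 loci lie wholly inside another: HIST1H4I inside HIST1H2BK and HIST2H2AC inside HIST2H2AB // HIST2H2BE.

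Summed over the 67 cluster loci, si-CTRL libraries had 15747, 17480 and 18486 normalized reads and si-SAM68 libraries 20543, 41162 and 20162. The si-SAM68 libraries were all above the si-CTRL libraries, and replicate 2 was 2.02 times the mean of replicates 1 and 3. Without a pair of HIST2 loci listed at 0 in 3 libraries the sums were 15747, 17031 and 18486 in si-CTRL and 19949, 39376 and 20162 in si-SAM68. The 14 replacement variants summed to 186246, 227976 and 231606 in si-CTRL and to 213687, 206710 and 219074 in si-SAM68. Here the groups overlapped, and si-SAM68 replicate 2 lay between the si-CTRL libraries. For every 100 reads of replacement variants, cluster loci had 8.45, 7.67 and 7.98 reads in si-CTRL, and 9.61, 19.9 and 9.20 in si-SAM68. As a share of all reads of a library, cluster loci took 0.0239% to 0.0280% in si-CTRL, 0.0311% and 0.0303% in si-SAM68 replicates 1 and 3, and 0.0542% in replicate 2.

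**Figure D1:**
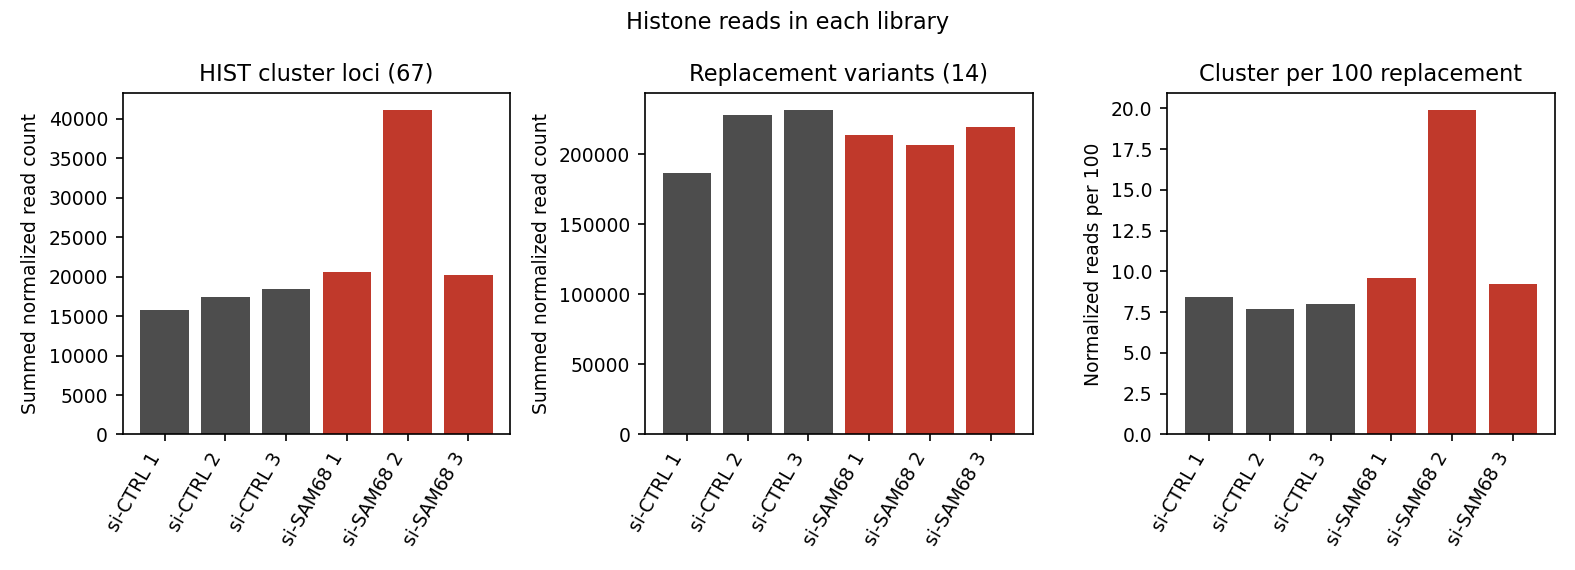
Bars give, for each of the 6 libraries, the summed normalized read count of the cluster loci (left) and of the replacement variants (middle), and the cluster reads per 100 replacement reads (right). Si-SAM68 replicate 2 reaches 41162 on the left and 19.9 on the right, against at most 20543 and 9.61 in the other libraries, and stands at 206710 in the middle, within the si-CTRL range.

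In the comparison of si-SAM68 with si-CTRL, 14 of the 61 cluster loci were called higher and 0 lower. A call required an unadjusted limma p no higher than 0.05 together with a change of 1.5-fold or more. Over all 18849 loci tested, 2.83% were called higher and 4.83% lower. At an unadjusted p under 0.05 alone, 19 cluster loci were higher and 0 lower in limma, against 12.8% and 14.1% of all loci. The median log2 fold change of the cluster loci was 0.87, from -0.21 to 3.66, with 57 of 61 above 0, whereas that of all loci was 0.01. Of the 11 replacement variants, 0 were called in either direction by limma, edgeR or DESeq2, and their median was -0.04. At an unadjusted p under 0.05 alone, 2 of the 11 were lower, against the same 14.1%. With the replicate number as a block, 22 cluster loci were called higher, among them all 14, against 3.12% of all loci. With the block, 6 of the 61 cluster loci passed an adjusted p of 0.05, against 3.88% of all loci higher. These were 5 of the 22 and HIST1H3E, which was short of 1.5-fold.

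Without si-SAM68 replicate 2, 1 of the 61 cluster loci was called higher (HIST1H3B), against 2.5% of all loci, and 0 lower, against 5.02%, whereas at an unadjusted p under 0.05 alone limma had 7 higher and 1 lower, against 9.03% and 11.3%. The median log2 fold change of the cluster loci was then 0.19, and 45 of 61 remained above 0. The test of edgeR on the recovered reads called 35 cluster loci higher with all libraries, against 3.01% of all loci, and 0 without this library, against 2.49%. In the latter fit 7 cluster loci had an unadjusted p under 0.05 in either direction, against 20.3% of all loci. With the block and without this library, 8 were called higher, against 4.01% of all loci, and 4 of the 8 were among the 14. In that fit si-CTRL replicate 2 has no partner, so that the fold changes rest on the same-numbered pairs of the remaining replicates alone. Both counts with the block include the pair of HIST2 loci listed at 0 in 3 libraries. In this library the share of rRNA and that of the cluster loci were both the highest. Among the others, si-CTRL replicate 3 had 3.17% rRNA and 0.0280% cluster reads, and si-SAM68 replicate 3 had 1.95% and 0.0303%. The part of rRNA carry-over in the cluster values was not tested.

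**Figure D2:**
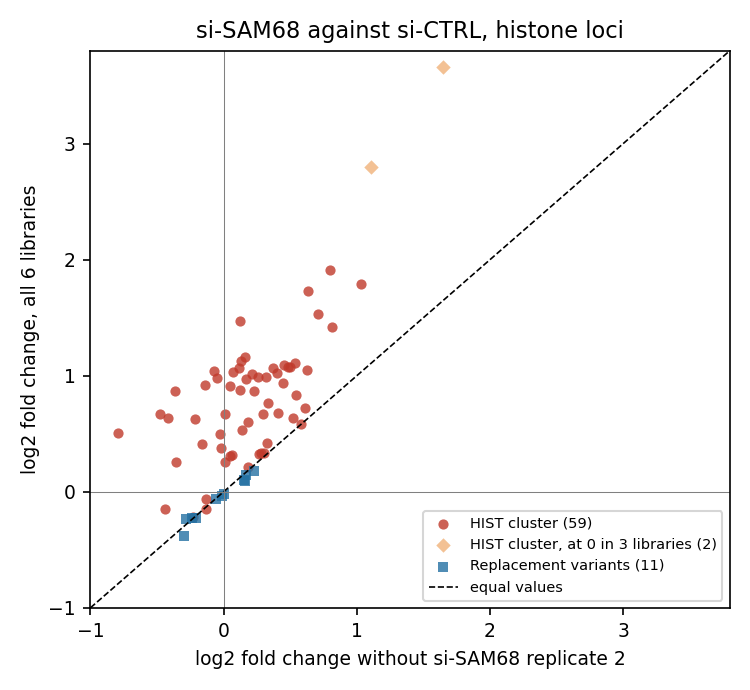
Each point is a histone locus tested, with its log2 fold change of si-SAM68 over si-CTRL without si-SAM68 replicate 2 on the x axis and with all 6 libraries on the y axis. Cluster loci lie mostly above the dashed line of equal values (medians 0.19 and 0.87), and replacement variants lie along it (medians -0.01 and -0.04).

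The excess of si-SAM68 replicate 2 was then described locus by locus, as its value over that of replicates 1 and 3 on the log2 scale. Replicate 2 was the highest of the 6 libraries in 58 of the 61 cluster loci, as it was in 12.6% of all loci tested. The exceptions were HIST1H3E, HIST3H2A and the pseudogene HIST2H2BA. It was at least 2 times replicates 1 and 3 in 44 cluster loci, against 2.34% of all loci. The median excess was 3.57-fold over the cluster loci, 0.955-fold over the replacement variants (0.847 to 1.12) and 0.994-fold over all loci. These cluster counts include HIST1H1A and HIST1H2BB, tested only through replicate 2, and without them the cluster median was also 3.57-fold.

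By family, the 13 loci of core histone H4 had a median excess of 4.78-fold, and all 13 were at least 2-fold. The median was 3.50-fold for the 18 H2B loci, 2.86-fold for the 10 H3 loci and 2.41-fold for the 12 H2A loci. The H2B loci include HIST1H2BB, tested only through replicate 2, and without it their median was 3.40-fold. The 5 linker histone H1 loci lay between 1.27-fold and 10.8-fold. Their median of 3.32-fold is the value of HIST1H1A, which was tested only through replicate 2, and without it the median was 4.998-fold, so that the families are not ranked. HIST1H4E had 202, 157 and 169 normalized reads in si-CTRL and 194, 1518 and 190 in si-SAM68. HIST1H4C had 41.2, 48.4 and 42.8 in si-CTRL and 43.3, 438 and 40.2 in si-SAM68. In both loci si-SAM68 replicate 2 alone was high, and replicates 1 and 3 lay within or next to the si-CTRL libraries.

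**Figure D3:**
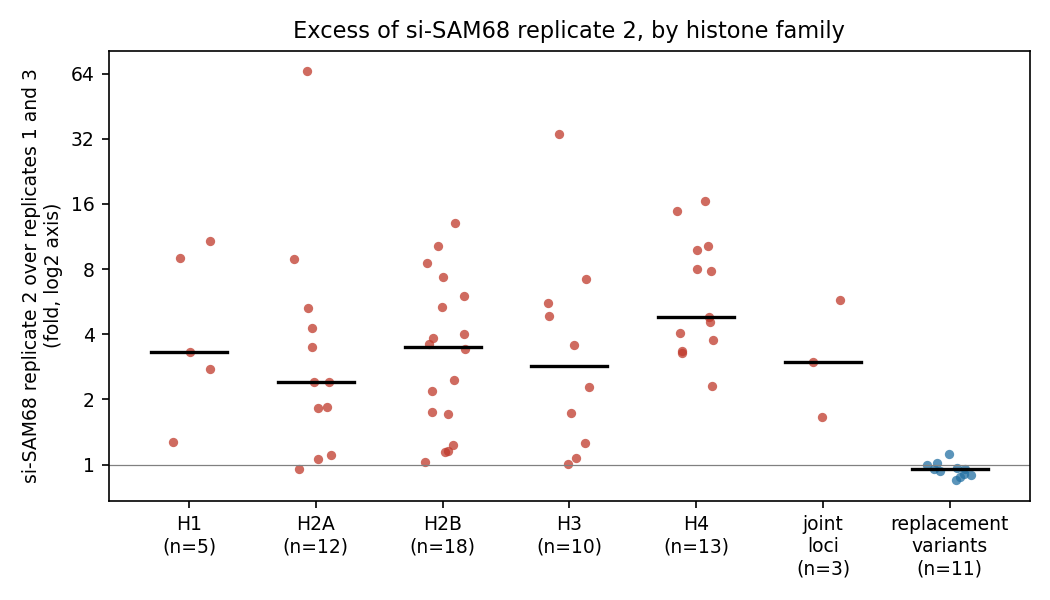
Each point is a locus tested, placed by histone family on the x axis and by the fold of si-SAM68 replicate 2 over replicates 1 and 3 on a log2 y axis, and black bars are medians. The H4 loci lie between 2.30 and 16.5, whereas the replacement variants lie between 0.847 and 1.12.

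The excess went with the annotated form of the locus. The 34 cluster loci spanning fewer than 1000 bases had a median excess of 4.71-fold, and the 27 longer ones 2.30-fold. The 40 loci without a poly(A) signal at an annotated transcript end had 3.95-fold, and the 21 with one had 2.46-fold. Most of these 40 were annotated as coding sequence alone, where no such signal could be found. This split therefore reflects the annotation and does not show that the genes lack a signal. It also went with the read count: the median was 5.42-fold in the 32 loci with a si-CTRL mean under 100 normalized reads, 2.36-fold in the 24 from 100 to 1000, and 1.14-fold in the 5 of at least 1000. These splits overlap, since short loci were also those with few reads (median si-CTRL mean 49.9, against 176 for longer loci), and they were not tested against each other.

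Counted in reads rather than folds, the addition in replicate 2 did not rise steadily with the read count of the locus. In the loci under 100 its median was 214 normalized reads (range 0.153 to 834). The median was 414 in those from 100 to 1000 (-13.6 to 1326). In those of at least 1000 it was 215 (117 to 670). The additions thus varied widely within each group, and a constant amount per locus is not shown. They were not tested against the spread between libraries. Of the 61 loci, 60 had an addition above 0 and 48 one of over 100 reads. HIST1H4E had the largest with 1326, and the 10 largest made up 41.3% of the whole addition of 20810 reads. A pair of HIST2 loci that were listed at 0 in si-SAM68 replicate 3 made up 7.16% of it, and without them the addition was 19321 reads and the 10 largest took 41.2%. The 5 loci of at least 1000 reads (HIST1H2BK, HIST1H1C, HIST1H2AC, HIST1H3G and the pseudogene HIST2H2BC) took 8.30% of the whole addition, and 8.94% without that pair. Their share of the cluster reads was therefore 30.9% in replicate 2 and 52.2% to 55.4% in the other libraries.

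The difference that remained between si-SAM68 replicates 1 and 3 and si-CTRL was placed differently from the addition in replicate 2. The mean cluster sum of these replicates was 1.18 times that of si-CTRL, and the 5 loci of at least 1000 reads made up 62.5% of the difference. These loci held 52.2% to 52.8% of the cluster reads in si-CTRL, so that 62.5% is not far above their share. HIST2H2BC, among the 5, was below every si-CTRL library in both replicates. In 15 of the 61 cluster loci both replicates were above every si-CTRL library, against 20.1% of all loci, and in 6 both were below, against 20.4%. With all 3 si-SAM68 libraries, 15 cluster loci were above every si-CTRL library, against 16.6% of all loci, and 0 were below, against 17.3%. Replicate 2 was the highest library in 58 of the 61, so that few could be below with it, and this 0 is not read as a result. In replicates 1 and 3 alone, the share above the controls was near that of all loci, and the share below was smaller.

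The loci that passed with an adjusted p under 0.05 (limma, Benjamini-Hochberg over all loci) were HIST1H1C, HIST1H3E, HIST1H3G and HIST1H2BK, all higher. They were 4 of 61 cluster loci, against 4.47% of all loci higher by this rule, and none was lower. Without si-SAM68 replicate 2 HIST1H1C and HIST1H3E passed, 2 of 61 against 1.45% of all loci higher, and 0 were lower, against 2.84%. HIST1H1C, a linker histone gene on chromosome 6 (26055781 to 26056701), had 1561, 1864 and 1858 normalized reads in si-CTRL and 2502, 3191 and 2540 in si-SAM68. The 2 groups did not overlap, with or without replicate 2. The log2 fold change was 0.64 ± 0.12 (SE, n = 3 per group, limma adjusted p = 0.00929), and without replicate 2 it was 0.52 (adjusted p = 0.0376).

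HIST1H3E, which encodes a core histone H3 (chromosome 6, 26224427 to 26227699), had 359, 349 and 351 normalized reads in si-CTRL and 494, 530 and 564 in si-SAM68. All si-SAM68 libraries were high here, and replicate 2 lay between the other two. Its log2 fold change was 0.58 ± 0.10 (SE, limma adjusted p = 0.00822), a fold of 1.497 and thus just short of the threshold of 1.5, and it was 0.58 without replicate 2 (adjusted p = 0.0412). This locus was singled out after its values were seen. Its annotated transcript runs on for 1862 bases past the stem-loop shown above to a poly(A) signal.

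HIST1H3G, another H3 gene, had 1185, 1261 and 1369 normalized reads in si-CTRL and 1535, 1682 and 1593 in si-SAM68. HIST1H2BK, an H2B gene with an 8565-base locus, had 3145, 3312 and 3547 in si-CTRL and 3994, 4578 and 4010 in si-SAM68. Neither overlapped between groups. Their log2 fold changes were 0.34 ± 0.09 and 0.33 ± 0.09 (SE, limma adjusted p = 0.0409 and 0.0390), below 1.5-fold. Both missed an adjusted p of 0.05 without replicate 2 (0.172 and 0.178) and with the block (0.0544 and 0.0532), whereas HIST1H1C and HIST1H3E passed with the block (0.0107 and 0.0228).

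**Figure D4:**
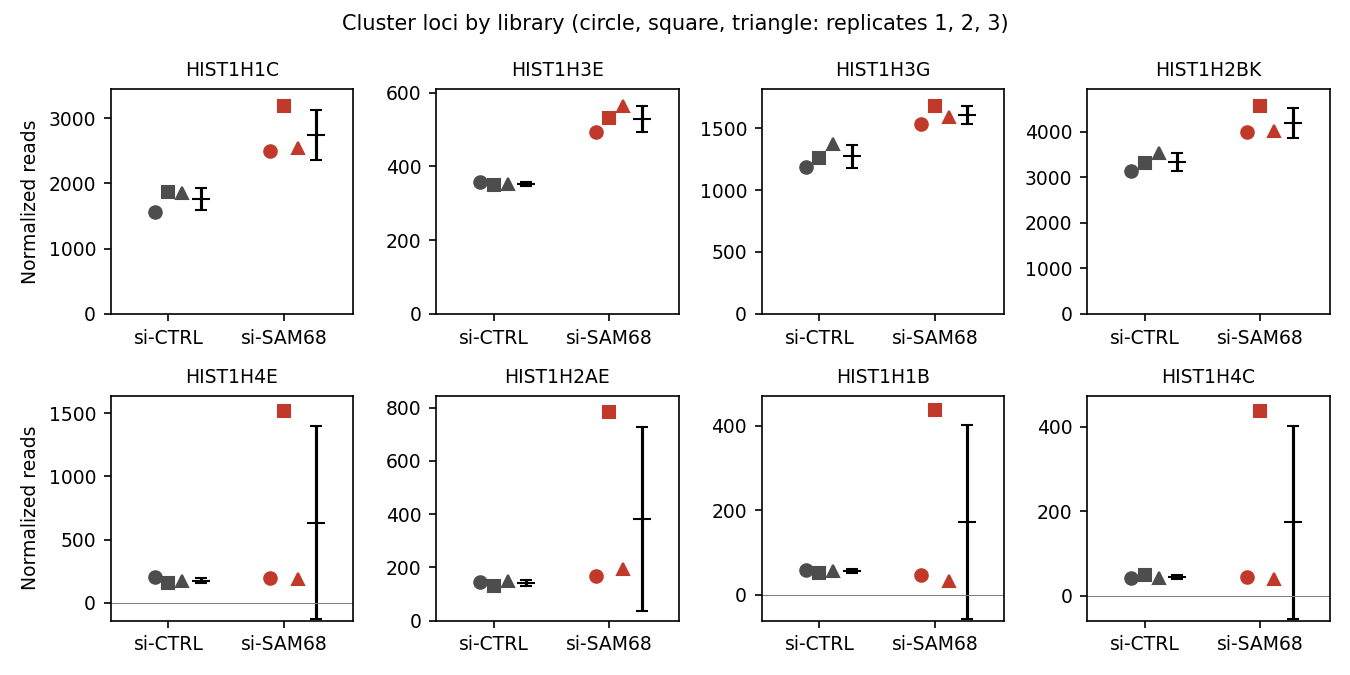
Normalized reads of 8 cluster loci by library, with si-CTRL in grey, si-SAM68 in red and black bars for mean ± SD (n = 3), which run below 0 where 1 library decides the mean. In the upper row all si-SAM68 libraries lie above si-CTRL, as in HIST1H3E (494 to 564 against 349 to 359). In the lower row replicate 2 stands far above every other library, as in HIST1H4E (1518 against 157 to 202). The other si-SAM68 libraries of that row lie above si-CTRL in HIST1H2AE and below it in HIST1H1B.

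Among the linker histones, HIST1H1D was called with 88.7, 168 and 135 normalized reads in si-CTRL and 158, 478 and 188 in si-SAM68 (log2 fold change 0.94, limma adjusted p = 0.145). The groups overlapped, and without replicate 2 it was no longer called (0.45, adjusted p = 0.364), whereas with the block its adjusted p was 0.0362. HIST1H1B had 58.7, 50.4 and 57.0 in si-CTRL and 46.3, 436 and 33.5 in si-SAM68. Replicates 1 and 3 were below every si-CTRL library here, and replicate 2 was above, with log2 fold changes of 0.67 with all libraries and -0.48 without it, neither called. HIST1H1E gave 0.92 and -0.14 in the same way.

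Of the H2A loci, HIST1H2AE, HIST1H2AJ and HIST2H2AC were called higher. HIST1H2AE, whose short transcript ends 51 bases after the stem-loop shown above, had 145, 129 and 148 normalized reads in si-CTRL and 169, 782 and 195 in si-SAM68. The groups did not overlap, and the log2 fold change was 1.07 with all libraries (limma adjusted p = 0.172) and 0.37 without replicate 2 (adjusted p = 0.264). HIST1H2AJ had 206, 180 and 299 in si-CTRL and 332, 600 and 317 in si-SAM68 (0.83 with all libraries and 0.54 without replicate 2, limma adjusted p = 0.0656 and 0.184). HIST2H2AC, which overlaps another locus, had 52.5, 63.9 and 104 in si-CTRL and 94.7, 264 and 126 in si-SAM68. HIST1H2AC, one of the loci with most reads, had 1306, 1592 and 1884 in si-CTRL and 1843, 2130 and 1987 in si-SAM68 and was not called (0.33, limma adjusted p = 0.132).

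Of the H2B loci, HIST1H2BC, HIST1H2BD, HIST1H2BH and HIST1H2BL were called higher, and none of these 4 overlapped between the groups. HIST1H2BD had 735, 852 and 932 normalized reads in si-CTRL and 1089, 1946 and 1127 in si-SAM68. Its log2 fold change was 0.68 ± 0.20 (SE, limma adjusted p = 0.0591), 0.41 without replicate 2 (adjusted p = 0.118), and with the block its adjusted p was 0.0472. HIST1H2BH had 78.7, 86.2 and 112 in si-CTRL and 116, 439 and 142 in si-SAM68. HIST1H2BC had 129, 115 and 145 in si-CTRL and 191, 620 and 153 in si-SAM68. HIST1H2BL had 125, 144 and 147 in si-CTRL and 175, 374 and 165 in si-SAM68. Replicate 2 was the highest library in each, and without it the log2 fold changes of these 3 were 0.48, 0.40 and 0.30, under 1.5-fold.

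Of the H3 loci, HIST1H3B, HIST1H3F and HIST2H3D were called higher. HIST1H3B had 32.5, 64.9 and 53.2 normalized reads in si-CTRL and 70.5, 448 and 89.4 in si-SAM68, with log2 fold changes of 1.53 (limma adjusted p = 0.125) and, without replicate 2, of 0.71 (adjusted p = 0.239). The groups did not overlap in either case, and an unadjusted p of 0.0477 made it the 1 locus called without replicate 2. With the block and all libraries its adjusted p was 0.0458. HIST1H3F had 6.25, 12.6 and 15.2 in si-CTRL and 33.2, 115 and 15.6 in si-SAM68, with few reads behind every value but that of replicate 2. HIST2H3D had 33.7, 46.5 and 68.4 in si-CTRL and 78.6, 92.0 and 68.1 in si-SAM68, so that the groups overlapped.

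Of the H4 loci, HIST1H4I and HIST4H4 were called higher, and both overlapped between the groups. HIST1H4I, inside the HIST1H2BK locus, had 31.2, 63.0 and 58.9 normalized reads in si-CTRL and 82.6, 236 and 61.4 in si-SAM68. Without replicate 2, HIST1H4I, HIST4H4 and HIST1H1D were not called. With the block as well, on the pairs of replicates 1 and 3 alone, they were (log2 fold changes 0.72, 0.70 and 0.65). HIST4H4, the cluster gene on chromosome 12 (14920934 to 14924065), had 65.0, 129 and 92.2 in si-CTRL and 108, 477 and 147 in si-SAM68. With the block, limma gave HIST4H4 an adjusted p of 0.0405, against 0.170 without it. The 6 loci in which replicates 1 and 3 were below every si-CTRL library, singled out after their values were seen, were HIST1H1B, HIST1H2AG, HIST1H2AH, HIST1H3J, HIST1H4L and HIST2H2BC. HIST1H2AG, whose poly(A) end is shown above, had 261, 358 and 412 in si-CTRL and 252, 454 and 247 in si-SAM68, and its log2 fold change without replicate 2 was -0.44 (limma adjusted p = 0.241).

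A pair of HIST2 loci were listed at 0 in some libraries of each group and far above it in others. HIST2H2AA3 // HIST2H2AA4 was listed at 0 in si-CTRL replicates 1 and 3 and in si-SAM68 replicate 3, and had 391 normalized reads in si-CTRL replicate 2 and 525 and 1505 in si-SAM68 replicates 1 and 2. HIST2H3A // HIST2H3C was listed at 0 in the same 3 libraries and had 58.1, 69.5 and 281 in the others. Both hold pairs of duplicated genes, and they were the only 2 loci of the whole table at 0 in these libraries and over 10 in the rest. Their log2 fold changes are among the largest of the cluster loci and are not read as a change, and without them the median of the cluster loci was 0.83.

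The replacement variants were described one by one. H3F3B and H3F3A encode the H3 variant that is loaded outside replication. H3F3B had 64230, 80604 and 83191 normalized reads in si-CTRL and 73112, 72219 and 78170 in si-SAM68. The groups overlapped, with a log2 fold change of -0.02 ± 0.10 (SE, limma adjusted p = 0.925) whose sign changed without replicate 2 (0.0015). H3F3A, in 1 locus with H3F3AP4, had 12902, 17351 and 16385 in si-CTRL and 17631, 16218 and 18525 in si-SAM68 (0.18, limma adjusted p = 0.339). H3F3C, an H3 gene known from testis, had 7.50 to 30.4 in si-CTRL and 13.4 to 16.6 in si-SAM68.

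H2AFZ and H2AFV encode H2A.Z, a variant found at gene starts. H2AFZ had 18446, 30558 and 28636 normalized reads in si-CTRL and 27873, 25419 and 28370 in si-SAM68. H2AFV had 11830, 17098 and 16389 in si-CTRL and 16238, 16032 and 17231 in si-SAM68. In both, si-CTRL replicate 1 was the low library, and the groups overlapped. The log2 fold changes of 0.11 and 0.15 (limma adjusted p = 0.719 and 0.498) became -0.12 and -0.02 without it.

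H2AFY and H2AFY2 encode macroH2A, a large H2A variant of silent chromatin, and were the 2 replacement variants whose groups did not overlap, both lower in si-SAM68. As a background, 17.3% of all loci were below in this way. H2AFY had 10000, 8653 and 8759 normalized reads in si-CTRL and 7777, 7884 and 7700 in si-SAM68. Its log2 fold change was -0.23 ± 0.08 (SE, limma adjusted p = 0.0949). H2AFY2 had 2306, 1707 and 1697 in si-CTRL and 1684, 1296 and 1392 in si-SAM68, with a log2 fold change of -0.38 ± 0.14 (SE, limma adjusted p = 0.114). With the block, H2AFY2 had an adjusted p of 0.0353, the only replacement variant to pass (1 of 11, against 5.12% of all loci lower by this rule), and H2AFY one of 0.111.

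Of the others, H2AFX had 3123, 3215 and 3902 normalized reads in si-CTRL and 3470, 3165 and 3280 in si-SAM68 (-0.04, limma adjusted p = 0.831). Although it carries the stem-loop, its excess in si-SAM68 replicate 2 was 0.938-fold, within the range of the other replacement variants. H2AFJ, an H2A variant, had 1111, 1021 and 1016 in si-CTRL and 1262, 1024 and 1088 in si-SAM68 (0.10). The linker variant H1F0 had 59066, 63430 and 66886 in si-CTRL and 60910, 60083 and 60023 in si-SAM68 (-0.06), and H1FX had 3225 to 4714 and 3282 to 3713 (-0.23). None of these 4 passed, and all overlapped between groups. The antisense locus H1FX-AS1 had 51.2 to 64.9 and 44.7 to 72.5 (-0.02), and without a stated counting strand its reads cannot be told apart from those of H1FX where the 2 loci meet.

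**Figure D5:**
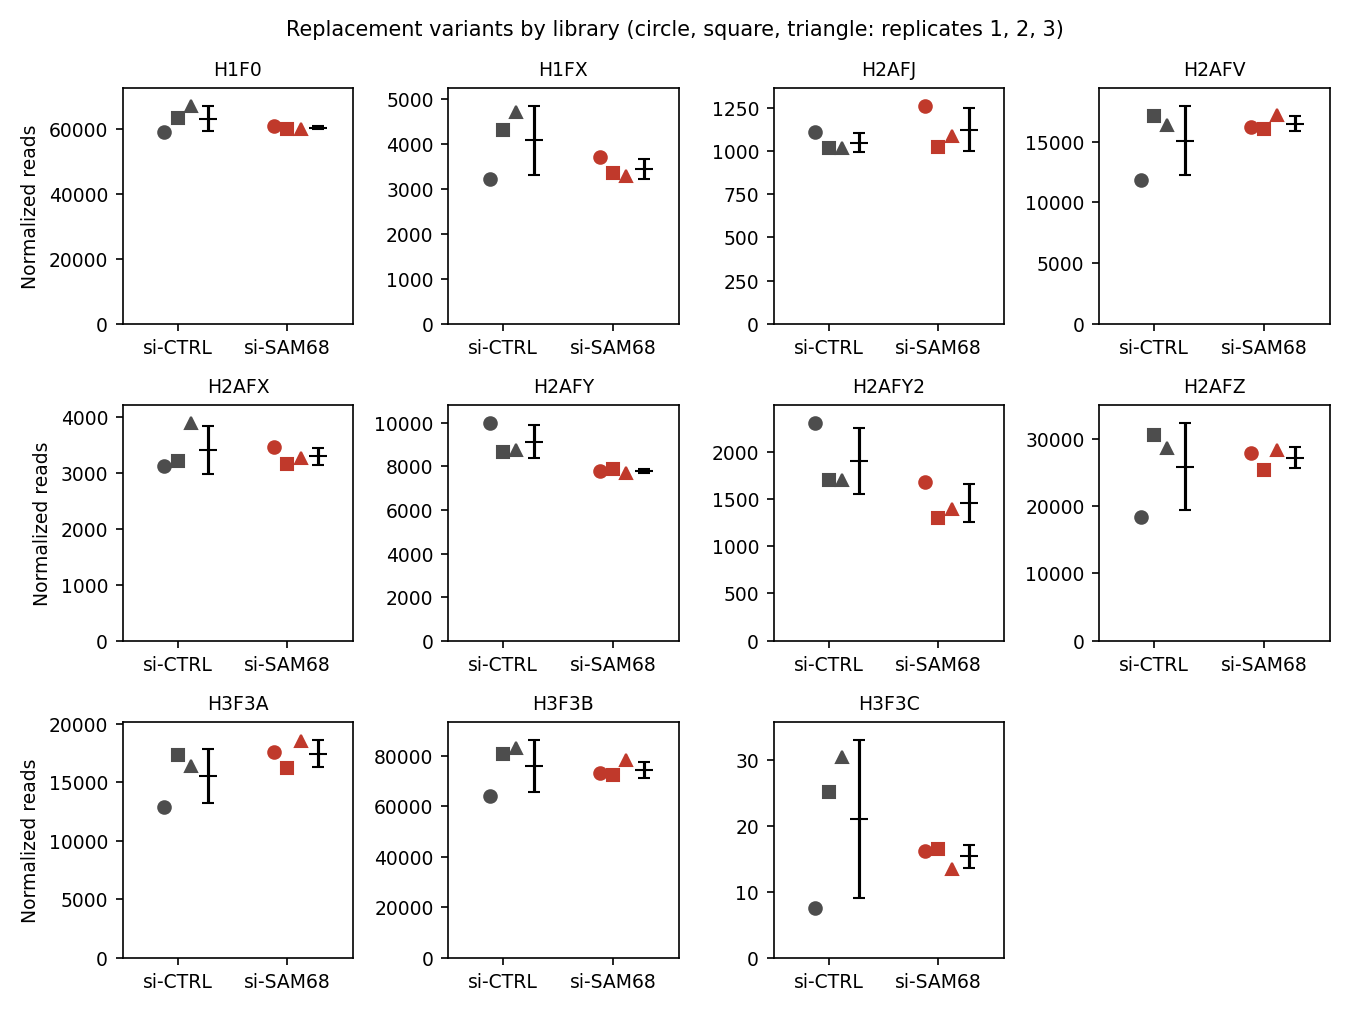
Normalized reads of the 11 replacement variants tested, by library, with si-CTRL in grey, si-SAM68 in red and black bars for mean ± SD (n = 3). The square of si-SAM68 replicate 2 lies close to the other si-SAM68 libraries in each panel, and the groups are apart in H2AFY (7700 to 7884 against 8653 to 10000) and H2AFY2.

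The genes that make and handle histone mRNA were read from lists. Of 16 genes of histone mRNA 3′ end formation and transcription, 0 were called in either direction by limma or edgeR. At an unadjusted limma p under 0.05, 3 were higher and 3 lower, against 12.8% and 14.1% of all loci. At an adjusted p under 0.05, 1 was higher (NPAT) and 1 lower (LSM10), against 4.47% and 6.23%. The median log2 fold change of the list was 0.08. SLBP had 3312, 2785 and 3051 normalized reads in si-CTRL and 2544, 2379 and 2549 in si-SAM68, with no overlap and a log2 fold change of -0.29 ± 0.09 (SE, limma adjusted p = 0.0621). NPAT, the cofactor that activates the histone clusters, had 2801, 2684 and 2628 in si-CTRL and 3083, 3464 and 3531 in si-SAM68, again with no overlap (0.31 ± 0.08, limma adjusted p = 0.0401). With the block it missed the threshold (adjusted p = 0.0665). LSM10, a subunit of the U7 particle that cuts histone pre-mRNA, was lower by this test (-0.33, limma adjusted p = 0.0275). Without si-SAM68 replicate 2 neither NPAT nor LSM10 passed (limma adjusted p = 0.165 and 0.124), at log2 fold changes of 0.29 and -0.32. With the block and all libraries LSM10 passed (limma adjusted p = 0.0458).

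Of 24 histone chaperones and exchange factors, 0 were called by limma or edgeR, and the median log2 fold change was -0.01. At an unadjusted limma p under 0.05, 2 were higher and 1 lower, against 12.8% and 14.1% of all loci. At an adjusted p under 0.05, ASF1A, a chaperone of newly made H3 and H4, was higher (0.51, adjusted p = 0.0397), and DAXX, which loads replacement H3 at silent repeats, was lower (-0.37, adjusted p = 0.0161). Over all loci, 4.47% were higher and 6.23% lower by this rule, and 1.45% and 2.84% without replicate 2. Without replicate 2 neither gene passed (limma adjusted p = 0.0676 and 0.0742), although the log2 fold changes were then 0.58 and -0.37. With the block and all libraries both passed (limma adjusted p = 0.0265 and 0.0276).

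Of 31 S phase genes, 1 was called higher (CCNE2), against 2.83% of all loci, and 1 lower (CCNE1), against 4.83%. Both are cyclins that act with CDK2 at entry into S phase. CCNE2 had 1437, 1355 and 1512 normalized reads in si-CTRL and 2418, 2410 and 2582 in si-SAM68 (log2 fold change 0.78, limma adjusted p = 0.000778). CCNE1 had 446, 356 and 415 in si-CTRL and 219, 189 and 241 in si-SAM68 (-0.91, limma adjusted p = 0.00419). At an unadjusted limma p under 0.05 alone, 2 of the 31 were higher and 14 lower, against 12.8% and 14.1% of all loci. At an adjusted p under 0.05, 2 were higher (CCNE2 and GINS1) and 7 lower (among them CCNE1, CDC45, FEN1 and MCM5), against 4.47% and 6.23%. Without si-SAM68 replicate 2 these were 1 higher (CCNE2) and 2 lower (CCNE1 among them), against 1.45% and 2.84% of all loci. GINS1 was then called higher by the unadjusted rule with 1.5-fold. GINS1, CDC45, MCM5 and FEN1 missed the adjusted threshold (limma adjusted p = 0.0639, 0.0502, 0.0986 and 0.174), at log2 fold changes of 0.59, -0.41, -0.36 and -0.25. With all libraries these fold changes were 0.55, -0.43, -0.37 and -0.26. With the block FEN1 missed this threshold (adjusted p = 0.0700). The median of the list was -0.13, and 15 of 31 were below every si-CTRL library, against 17.3% of all loci. Si-SAM68 replicate 2 was the highest library in none, against 12.6% of all loci. In bulk RNA, fewer cells in S phase and less RNA of a gene per cell cannot be told apart.

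Other RNAs made without a poly(A) tail were read in the same way. RMRP, the RNA of a ribonuclease, had 105, 294 and 329 normalized reads in si-CTRL and 214, 4694 and 136 in si-SAM68. RPPH1, the RNA of ribonuclease P, had 42.5, 76.5 and 111 in si-CTRL and 120, 811 and 96.1 in si-SAM68. In both, si-SAM68 replicate 2 alone was high, by 27.4-fold and 7.50-fold over replicates 1 and 3, and the rRNA precursor locus was 7.92-fold higher in it. RNU11 had 2.12-fold. TERC, the RNA of telomerase, and RNU4ATAC, a minor spliceosome RNA, had 1.17-fold and 1.11-fold, so that not every RNA of this list was raised in this library. The list had 12 RNAs. Of the 6 tested, 4 were at least 2-fold, against 2.34% of all loci. Among the 4 is the rRNA precursor locus, which had set this library apart beforehand, so that its excess is no separate result. RPPH1 was called higher (1.55, limma adjusted p = 0.179), and edgeR also called RMRP (2.78, edgeR adjusted p = 0.140). Without replicate 2 limma called 0, also at an unadjusted p under 0.05.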

How the data were processed

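Poly(A)-selected RNA of 6 MDA-MB-231 libraries was sequenced, 3 of si-CTRL and 3 of si-SAM68, and grouped by the sample labels. In the deposited table the unit is a signal, that is, reads counted per FAST DB locus on hg19 after scaling by DESeq2 size factors. The submitters' processing notes name STAR 2.4.0, SAMtools, Picard, FastQC and DESeq2, and neither the rule for reads matching several copies nor the use of strand in counting is given in the sources used here. Both bear on histone paralogs.

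Loci with a mean of at least 10 were tested with limma 3.58.1 in R 4.3.3 on log2(normalized read count + 1), so that fold changes of low loci are understated. Calls used the study's thresholds, an unadjusted p no higher than 0.05 with a change of 1.5-fold or more, and adjusted p-values (Benjamini-Hochberg) cover all 18849 loci tested. Reads were recovered from the step between values in a library, which gave whole numbers for 100% of the values within 0.01, although the step of si-SAM68 replicate 1 (1.007) is close to 1, and were tested with edgeR 4.0.16 and DESeq2 1.42.0. The count tests and limma were run on data simulated with a common spread and no deviant library. That check does not cover a library set apart by its rRNA share. Depth differed by library, and 3 libraries per group limit the precision of every value.

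Same-numbered libraries of both groups deviated together (r = 0.105, 0.231 and 0.125 over loci, against -0.125 to 0.00687 for other pairs), so the replicate number was taken to pair them, and the fit with it as a block is given beside the results it changes. The numbers come from the sample titles. Deviations were taken from the mean of each group, so that high values for same-numbered pairs lower those of the other pairs. The labels do not state a pairing, and it was read from the same values that the block fit tests.

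Named were all replacement variants tested, cluster loci called with or without si-SAM68 replicate 2, the 5 cluster loci of highest mean, list members called, SLBP, NPAT and KHDRBS1, and the rest were named after their values were seen. Members, lists and tests were chosen with earlier results of these data known. The stem-loop and poly(A) signals were searched in GENCODE 29 transcripts by gene symbol. Other scalings, filters, pseudocounts and fits without each library were tried. The values of 1 S phase gene are not reported here.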

Additional observations from a re-analysis of the deposited data

How the results depend on the processing

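The 14 cluster loci called higher numbered between 1 and 30 with 1 library left out, the lowest without si-SAM68 replicate 2 and the highest without si-SAM68 replicate 3, and 8 without si-CTRL replicate 1. They were 22 with the replicate block, 35 by edgeR, 4 by adjusted p, and, without si-SAM68 replicate 2, 8 with the block, 1 with TMM factors and 0 by edgeR. All 14 were called with TMM factors, with either pseudocount and with no filter, and 12 of them by DESeq2. The replacement variants called lower were 0 to 1, with 1 (H3F3C) without si-CTRL replicate 1. Over all loci, the 534 higher calls became 907 with no filter, 842 by adjusted p and 466 to 837 with a library left out (837 without si-CTRL replicate 2). The lists had, by adjusted p, 1 higher and 1 lower for 3′ ends and for chaperones, and 2 higher and 7 lower for S phase. Chaperones had 0 to 1 higher with a library left out and 1 with the block without si-SAM68 replicate 2, and S phase genes 1 to 2, and 2 with the block or TMM factors without that library. The sign of H3F3B turned to 0.0485 and 0.0027 with the block and TMM factors without that library, and its value was -0.1373 to 0.0493 with 1 library left out. Likewise H3F3C was -0.8154 to 0.1278, H2AFZ -0.1216 to 0.2425, H2AFV -0.0215 to 0.2441 and H2AFX -0.1007 to 0.0597. The cause of these shifts was not tested. With all libraries the block changed no call of a named gene beyond those given in the report. The settings that join edgeR, the block or TMM factors with leaving out si-SAM68 replicate 2, and the median without the HIST2 pair, were chosen after seeing the data.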
